A study of Mus musculus with 24 samples.

Results

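The comparison described here is that of cGAS KO with wild type (WT) primary mouse embryonic fibroblasts (MEFs, connective tissue cells grown out of dissociated embryos) on day 42 of culture, at passage 14. Both genotypes carried the strain name C57B1/6 in the labels and had been passaged under 20% oxygen. The labels also give MEFs of both genotypes on day 33 (passage 11) and day 36 (passage 12), and those libraries serve here only to set the day 42 difference beside. How the KO allele was made, how many embryos gave the cells, and what sex the embryos had, the labels do not say. Genes entered where they reached 5 CPM (counts scaled to the library total) in the KO or the WT library of day 42, which 12023 of 45706 genes in the table did. Of these, 11070 reached 5 CPM in both libraries, 338 in KO alone and 615 in WT alone. Nearest to that limit, Gm7120 and Gm6723 (5.012 CPM) were inside and Spire2 and Gnat1 (4.992 CPM) outside.

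cGAS binds double-stranded DNA in the cytosol and makes a cyclic dinucleotide that activates STING, which in turn switches on the kinase TBK1, the factor IRF3 and NF-kB, and through them interferon and inflammatory genes. Senescence is a lasting arrest of the cell cycle, held by the inhibitors p16, p15 and p21 and by the retinoblastoma and p53 proteins, in which cells secrete cytokines, growth factors and proteases. MEFs kept in atmospheric oxygen are known to enter such an arrest after serial passage. The title of the series concerns the role of cGAS in senescence.

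The labels list 4 numbered samples per genotype and day. The 4 columns of a day 42 group agreed within sampling noise, with a mean chi-square per degree of freedom of 0.832 for KO and 0.843 for WT, whereas a KO and a WT column of that day gave 53.1. They were therefore summed and counted as 1 library, so n = 1 library per genotype and day, with no replicate error on day 42. The KO library held 36447008 counts and the WT library 35024528. The other 4 libraries held 25650577 to 48716880 counts. Mitochondrially encoded transcripts took 0.889% of the KO counts and 1.1% of the WT counts on day 42. Of 12 fibroblast markers all reached 5 CPM, 11 in both libraries and Lum in WT alone, and 11 were below WT in KO. None of the 18 macrophage markers in the table reached it on day 42. Their summed level was 82.2, 8.88 and 7.30 CPM in the KO libraries of days 33, 36 and 42, against 176.4, 38.5 and 11.2 CPM in WT. The part of macrophages in the differences of days 33 and 36 was not tested. Intervals given with a fold are exact 95% intervals for the counts of these libraries and cover counting error only.

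Xist, the RNA of the silenced X chromosome, was at 478, 465 and 640.2 CPM in the KO libraries of days 33, 36 and 42, against 0.363, 0.183 and 0.0573 CPM in WT. Uty, a Y-linked demethylase gene, was at 2.9, 2.91 and 2.69 CPM in KO, against 32, 29.9 and 30.7 CPM in WT. Kdm5d, Eif2s3y and Ddx3y, also Y-linked, were 5.97-fold lower (counting interval 5.26 to 6.79), 7.7-fold lower (counting interval 6.78 to 8.77) and 3.2-fold lower (counting interval 3.01 to 3.39) in KO on day 42. Of 7 Y-linked genes listed 5 reached 5 CPM, 4 of them at least 2-fold lower in KO. The other, Usp9y, was at a log2 difference of -0.10 on day 42, close to WT. All 3 KO libraries thus held much Xist, with Uty, Kdm5d, Eif2s3y and Ddx3y at a lower but measurable level. All 3 WT libraries held Y-linked transcripts with almost no Xist. Genotype and the sex make-up of the cultures cannot be told apart in these libraries, which applies to every comparison below.

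On day 42, KO cells had more transcripts of DNA replication and mitosis genes than WT cells. They had less of the cell cycle inhibitor genes Cdkn2a and Cdkn2b, and of many HOX and other positional genes. Many secreted and matrix genes and several interferon-stimulated genes were also lower in KO. A total of 364 genes (3.03%) were at least 2-fold higher in KO and 781 (6.5%) at least 2-fold lower, on a log2 scale of CPM with a prior count of 2. Larger differences were mostly downward: 54 genes were at least 4-fold higher and 330 at least 4-fold lower, 12 were at least 10-fold higher and 129 at least 10-fold lower. Scaled by library totals alone, without TMM factors, the median of all genes moved by 0.12 and the counts became 529 higher and 691 lower. Among the higher genes 103 were under 5 CPM in WT, and among the lower genes 407 were under 5 CPM in KO, of which 11 had 0 counts there. At 5 CPM or more in both libraries were 261 of the higher and 374 of the lower genes. The median log2 difference of the 12023 genes was 0.02, with quartiles at -0.29 and 0.30. Apart from Xist, the lower genes reached further from 0 than the higher ones in the plot of all genes.

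**Figure D1:**
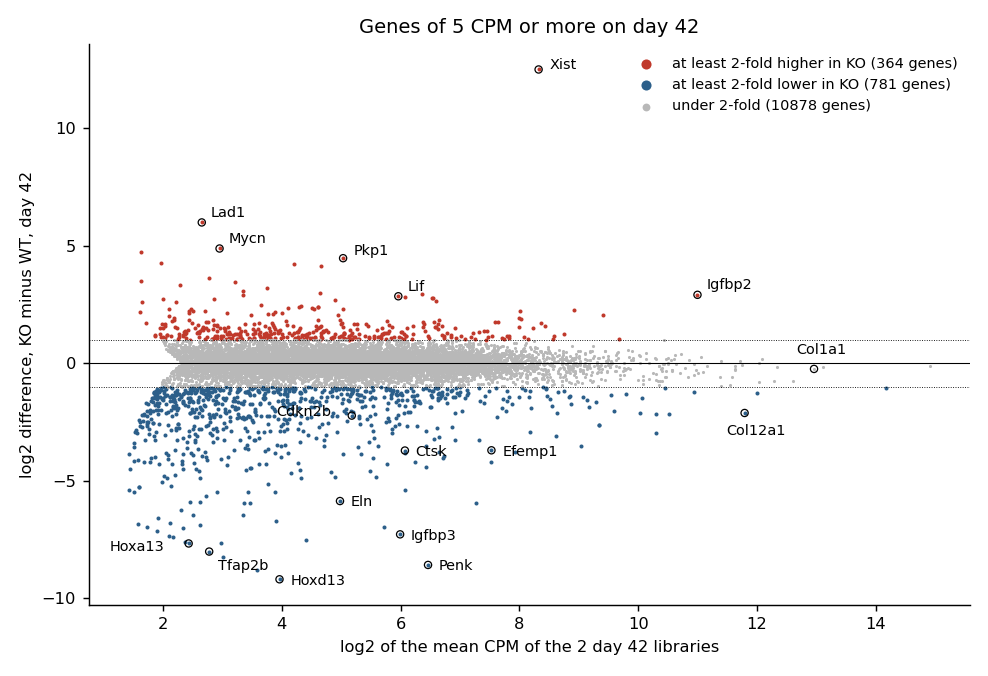
Log2 difference, KO minus WT, on day 42 (y axis, no unit) against the log2 of the mean CPM of the KO and WT libraries (x axis) for 12023 genes of 5 CPM or more in either library. Red points are the 364 genes at least 2-fold higher in KO, blue points the 781 at least 2-fold lower, dotted lines mark 2-fold, and each point is 1 gene from 1 library per genotype. Xist stands apart at the top, and the lower genes reach below -9, at Hoxd13.

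Genes with the largest differences downward included the homeobox gene Hoxd13, the peptide gene Penk and the receptor gene Agtr2. Hoxd13 (chromosome 2, 74668310 to 74671599, plus strand in GRCm38), a homeobox gene of the distal limbs, was at 9.09, 0.0373 and 0 CPM in the KO libraries of days 33, 36 and 42, against 21.7, 5.82 and 31.2 CPM in WT. It had 0 counts in KO on day 42 and was at least 409.9-fold lower, taking 3 counts as the limit for a library at 0. Penk (chromosome 4, 4133531 to 4138819, minus strand), the precursor of the enkephalin opioid peptides, was at 7.98, 0.448 and 0.405 CPM in KO, against 29.1, 5.59 and 176 CPM in WT, and 434-fold lower (counting interval 267 to 759) on day 42. Both genes were lower in KO on all 3 days and lowest against WT on day 42. Tnn, a tenascin of the matrix, was at 0 counts in KO on day 42 and at 23.9 CPM in WT, at least 315-fold lower. Tfap2b, Hoxa13, Mmp3, Trpc6, Alx1 and Rpl39l, also at 0 counts in KO, were at least 180.5-, 142-, 136-, 118-, 113- and 98.7-fold lower. They encode an AP-2 factor, a HOX protein, the protease stromelysin, a cation channel, a craniofacial homeobox factor and a ribosomal protein paralog whose reads may be shared with near-identical copies. Agtr2, a receptor of angiotensin II, was at 0.987, 0.112 and 0.177 CPM in KO, against 18.8, 2.27 and 42.2 CPM in WT. Its order was the same on every day, KO under WT, with no overlap between the 3 libraries of each genotype.

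Genes with the largest differences upward included Lad1, Mycn and Igfbp2. Lad1 (chromosome 1, 135818598 to 135833342, plus strand), which encodes the basement membrane protein ladinin, was at 0.807, 7.46 and 12.44 CPM in the KO libraries of days 33, 36 and 42, against 0.171, 0.344 and 0.143 CPM in WT, and 86.9-fold higher (counting interval 37 to 269) on day 42. Pkp1, a plakophilin of desmosomes, was at 31.6, 29.4 and 62.7 CPM in KO, against 3.27, 5.04 and 2.78 CPM in WT. Mycn, a MYC family oncogene (chromosome 12, 12936093 to 12941914, minus strand), was at 0.777, 12.8 and 15 CPM in KO, against 0.598, 0.504 and 0.458 CPM in WT. Mycn thus stood near the WT level in KO on day 33 and far above it on both other days, while Pkp1 was higher in KO throughout. Gap43, a growth cone protein, was 17.8-fold higher (counting interval 14.4 to 22.1) on day 42, Lrrtm1, a synaptic adhesion protein, 21.8-fold higher (counting interval 12.3 to 42.7), and Slco4a1, an organic anion transporter, 9.38-fold higher (counting interval 7.56 to 11.8). B4galnt3, a glycosyltransferase, was 12.6-fold higher (counting interval 7.56 to 22.3), F2rl1, the protease-activated receptor PAR2, 8.07-fold higher (counting interval 6.95 to 9.42), and Fndc3c1 34.9-fold higher (counting interval 15.8 to 96.2). Slc38a4, an amino acid transporter, was 7.82-fold higher (counting interval 7.21 to 8.49). Igfbp2, an insulin-like growth factor binding protein, had the highest level of this group, at 1828, 2996 and 3607 CPM in KO, against 131, 328 and 479.6 CPM in WT. Its deposited RPKM (a count scaled to library size and gene length) on day 42 was 1101 in KO and 141 in WT, beside 623 in KO and 710.2 in WT for Col1a1, the main collagen chain of fibroblasts. Per length, Igfbp2 was therefore above Col1a1 in KO and below it in WT.

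The markers of other cell types were read beside these genes. Among 13 epithelial markers 5 reached 5 CPM, 2 of them in KO alone. Of the 5, 3 were at least 2-fold higher in KO (Lad1, Pkp1 and Krt19, a keratin at 29 CPM in KO and 5.59 CPM in WT). The keratins Krt5 and Krt7 were close to WT, at log2 differences of 0.20 and -0.10. By edgeR 1 member rose and 1 fell on days 33 and 36. The 13 summed to 85.0, 114.6 and 137.6 CPM in the KO libraries of days 33, 36 and 42, against 73.2, 79.2 and 38.4 CPM in WT. Neural markers summed to 775.3 CPM in KO and 369.1 CPM in WT, of which Nes, an intermediate filament gene of progenitor cells, held 411 CPM in KO and 111 CPM in WT. L1cam, a neural adhesion molecule, went the other way, at 7.09 CPM in KO and 27.2 CPM in WT. Endothelial markers summed to 42.1, 11.6 and 9.81 CPM in the KO libraries of days 33, 36 and 42, against 38.8, 51.95 and 41.2 CPM in WT. Most of the WT sum on day 42 was Eng, a TGF-beta co-receptor, at 1.95 CPM in KO and 25.3 CPM in WT. On day 33 Eng was at 29.1 CPM in KO and 23.0 CPM in WT. Kdr, a VEGF receptor, was 2.23-fold lower (counting interval 1.88 to 2.66) in KO on day 42. Eng and Kdr, the only members at 5 CPM, reached it in WT alone. In RNA from bulk cultures, fewer cells of a type and less RNA per cell cannot be told apart. The part of such cells in the differences was not tested.

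Because day 42 has 1 library per genotype, tests came from one edgeR quasi-likelihood fit to all 6 libraries, in which the spread is that between days 33 and 36 of each genotype and includes any change between those days. At an adjusted p below 0.05, 5 of 17233 genes (0.029%) differed on day 42, among them Xist upward and Uty, Eif2s3y and Fmo2 downward (adjusted p = 0.0336 for each), while 4683 had an unadjusted p below 0.05. DESeq2 called 1631 genes in the same design and limma-voom 7. Fmo2, a flavin monooxygenase, was at 0.179, 0.186 and 0.279 CPM in KO, against 1.32, 1.42 and 20.4 CPM in WT. The WT level of Fmo2 on day 42 was far above that of the other days. Leaving out any 1 library of days 33 and 36 left 0 calls for day 42.

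The libraries of days 33 and 36 hold no day 42 sample and give the same contrast separately. In them 251 genes (1.46%) rose and 318 (1.85%) fell in KO by the same fit. Of the 364 genes higher on day 42, 79 rose on the earlier days and 0 fell; of the 781 lower genes, 109 fell and 0 rose. Past 2-fold on both earlier days in the day 42 direction were 82 of the higher and 240 of the lower genes, and 188 and 307 passed it on neither. Over all genes of 5 CPM or more on day 33, 294 of 11855 were at least 2-fold higher in KO and 486 lower. On day 36, 349 of 11810 were higher and 552 lower. Those earlier calls rested on single libraries: 143 were made without the KO library of day 33, and 0 without that of KO day 36, WT day 33 or WT day 36. Each adjusted p quoted for days 33 and 36 below carries that limit. The days may be harvests of one culture line per genotype, in which case these p-values measure only the spread between harvests.

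The targeted gene, listed as Mb21d1 (ENSMUSG00000032344, chromosome 9, 78430526 to 78443237, minus strand), was at 0.239, 0 and 0.127 CPM in the KO libraries of days 33, 36 and 42, against 4.74, 4.08 and 4.81 CPM in WT. On day 42 these were 5 counts in KO and 168 in WT, 38-fold lower (counting interval 16 to 118), so the labels matched the gene's level, which lay just under the limit of 5 CPM in WT too. Of 25 genes of the cGAS-STING pathway 19 reached 5 CPM, with 1 at least 2-fold higher, 2 lower and a median of 0.08. Of the 19, 1 reached 5 CPM in WT alone, Ifi204. Tmem173, which encodes STING, was at 35.9, 42.4 and 30.6 CPM in KO, against 39.4, 32.6 and 21.3 CPM in WT. Its KO value exceeded the WT value on days 36 and 42 and was under it on day 33. The higher gene, Nlrc3, was 2.05-fold higher (counting interval 1.73 to 2.45), and the lower ones, Nlrx1 and Ifi204, were 2.56-fold lower (counting interval 2.21 to 2.98) and 2.43-fold lower (counting interval 1.92 to 3.08). Nlrc3 and Nlrx1 are NLR proteins known to restrain STING or mitochondrial antiviral signalling, and Ifi204 is a DNA-binding p200 protein.

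Most interferon-stimulated genes at 5 CPM were below WT in KO on day 42. Of 48 listed, 23 reached 5 CPM, and 22 of these were below 0 with a median of -0.44, against 0.02 for all genes. With library totals alone 20 of the genes were below 0. At least 2-fold lower were 7, or 4 with library totals alone, and none was 2-fold higher. Of the 23 genes, 2 reached 5 CPM in WT alone, Ifi27 and Ifih1. Both are among the 7 lower genes and could enter only through WT. Ifi27, an interferon-induced membrane protein, was at 22.8, 6.27 and 3.55 CPM in the KO libraries of days 33, 36 and 42, against 36.1, 26.1 and 86.1 CPM in WT. Lgals3bp, a secreted glycoprotein, was at 39.8, 24.5 and 17.9 CPM in KO, against 72.8, 47.9 and 108 CPM in WT. In both genes the KO level was lowest and the WT level highest on day 42, and the genotypes did not overlap. Tap1, a peptide transporter of antigen presentation, and Ifih1, the RNA sensor MDA5, were 2.35-fold lower (counting interval 2.06 to 2.68) and 2.27-fold lower (counting interval 1.88 to 2.76). The list's median was -0.05 on day 33 and 0.21 on day 36, and 0 members were called on those days. Ifnb1, which encodes interferon beta, had 0 counts in all 6 libraries. Isg15, a ubiquitin-like modifier, was at 0.684 CPM in KO and 2.46 CPM in WT, and the chemokine gene Cxcl10 at 0.253 CPM in KO and 1.17 CPM in WT, both under the 5 CPM limit. With the macrophage markers at a summed 7.30 CPM in KO and 11.2 CPM in WT on day 42, their part in these values was not tested.

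Genes of DNA replication and mitosis were higher in KO almost without exception. Of 41 replication genes 40 were above 0, with a median of 0.83, and 8 were at least 2-fold higher, or 17 with library totals alone. Of these 41, 2 reached 5 CPM in KO alone and could enter only through KO. Of 43 mitosis genes 42 were above 0, with a median of 0.79, and 10 were at least 2-fold higher, or 14 with totals alone. No member of either list was 2-fold lower; the members below 0 were E2f1, an E2F factor, at a log2 difference of -0.67, and Pttg1, the separase inhibitor securin, at -0.18. The medians on days 33 and 36 were 0.43 and 0.66 for replication and 0.67 and 0.84 for mitosis, and by edgeR 6 and 20 members rose on those days. The promoters of 4 members follow because the lists differ in the short motifs that are known to tie such genes to the cell cycle: E2F-type sites in replication genes, and the cell cycle homology region (CHR) in mitosis genes. They are RefSeq promoters of GRCm38.p6, 250 bases before to 50 after a start site, 5′ to 3′ on the gene's strand, and were chosen after their values were seen, as the 2 members of each list with the largest day 42 difference whose promoter holds the list's motif. Capitals mark GCGGGAA (E2F-type), CCAAT (the CCAAT box) and TTTGAA (CHR), each searched on both strands; in Uhrf1 a pair of CCAAT boxes on opposite strands overlaps.
Uhrf1, chr17:56303087-56303386, plus strand: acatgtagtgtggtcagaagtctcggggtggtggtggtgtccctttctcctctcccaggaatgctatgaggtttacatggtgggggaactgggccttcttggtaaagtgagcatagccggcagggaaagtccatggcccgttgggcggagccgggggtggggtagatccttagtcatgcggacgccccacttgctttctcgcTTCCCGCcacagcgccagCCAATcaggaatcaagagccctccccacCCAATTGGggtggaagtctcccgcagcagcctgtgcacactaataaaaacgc
Cdc6, chr11:98907901-98908200, plus strand: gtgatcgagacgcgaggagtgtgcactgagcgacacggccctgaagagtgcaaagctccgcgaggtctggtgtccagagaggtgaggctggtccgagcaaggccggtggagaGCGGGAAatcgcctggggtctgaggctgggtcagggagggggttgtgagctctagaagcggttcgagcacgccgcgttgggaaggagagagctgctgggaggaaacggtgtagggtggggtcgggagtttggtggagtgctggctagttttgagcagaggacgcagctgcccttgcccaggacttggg
Espl1, chr15:102296043-102296342, plus strand: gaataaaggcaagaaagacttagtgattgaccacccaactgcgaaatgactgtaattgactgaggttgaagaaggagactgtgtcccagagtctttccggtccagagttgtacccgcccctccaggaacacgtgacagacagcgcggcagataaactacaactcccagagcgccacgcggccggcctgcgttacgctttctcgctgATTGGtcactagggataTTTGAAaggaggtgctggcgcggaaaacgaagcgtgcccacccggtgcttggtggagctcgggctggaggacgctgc
Ect2, chr3:27153829-27154128, minus strand: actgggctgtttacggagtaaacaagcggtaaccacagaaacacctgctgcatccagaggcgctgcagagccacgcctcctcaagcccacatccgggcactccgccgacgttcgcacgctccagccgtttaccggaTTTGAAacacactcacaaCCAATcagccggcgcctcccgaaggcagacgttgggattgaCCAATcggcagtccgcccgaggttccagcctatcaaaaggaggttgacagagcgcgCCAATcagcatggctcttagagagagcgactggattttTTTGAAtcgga

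The GCGGGAA motif lay in a promoter of 13 of 32 replication genes with an entry (40.6%) and of 0 of 36 mitosis genes. TTTGAA lay in 3 of 32 replication genes (9.38%) and 25 of 36 mitosis genes (69.4%). Among all 8202 genes of 5 CPM or more with an entry the shares were 10.3% and 13.7%, and over the whole table of 27025 genes 5.29% and 20.2%. The CCAAT box was frequent everywhere, in 62.5% of replication, 72.2% of mitosis and 43.0% of all genes of 5 CPM or more. Over the 253 genes at least 2-fold higher with an entry, GCGGGAA was in 16.2% and TTTGAA in 15.0%, and over the 519 lower ones in 6.74% and 16.4%. A match describes letters in a window and is neither a binding site nor a cause of a difference.

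**Figure D2:**
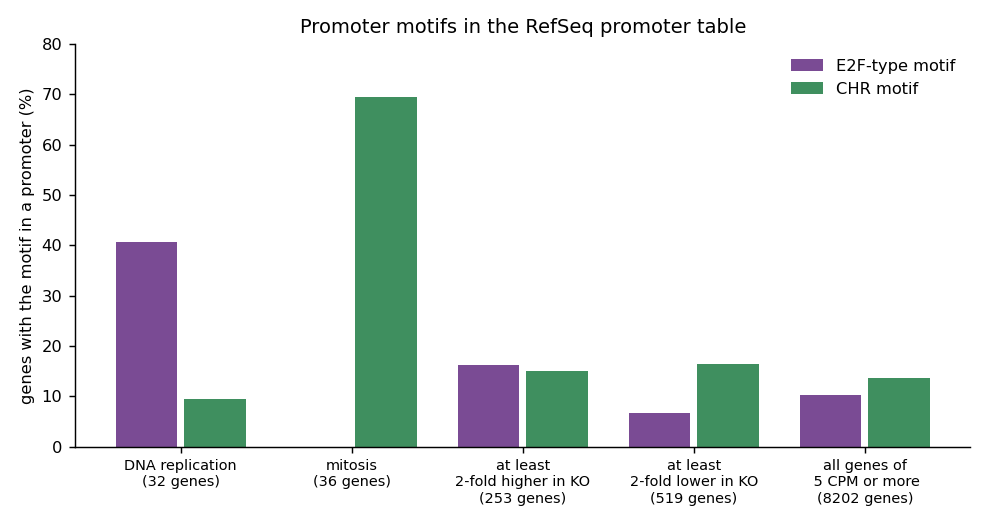
Share of genes (y axis, percent) with the E2F-type or the CHR motif in a RefSeq promoter, for replication genes, mitosis genes, genes at least 2-fold higher or lower in KO on day 42, and all genes of 5 CPM or more. Bars of the first pair of lists are opposite, with 40.6% and 9.38% for replication and 0% and 69.4% for mitosis.

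Uhrf1, which carries DNA methylation through replication, was at 49.3, 53.6 and 56.6 CPM in the KO libraries of days 33, 36 and 42, against 25.4, 22.6 and 20.4 CPM in WT, and rose by 1.1 ± 0.10 on the log2 scale on days 33 and 36 (SE, adjusted p = 0.0346). Cdc6, which loads the MCM helicase on origins, was at 9.81, 9.59 and 13 CPM in KO, against 5.76, 4.88 and 5.5 CPM in WT (adjusted p = 0.054 on days 33 and 36). In both the KO range lay above the WT range on every day. Orc1, a subunit of the origin recognition complex, was 2.96-fold higher (counting interval 2.39 to 3.69) on day 42, and Mcm10, a replication initiation factor, 2.33-fold higher (counting interval 2.09 to 2.61). Among mitosis genes, Mybl2, a MYB factor of late cell cycle genes, was 3.07-fold higher (counting interval 2.66 to 3.55), the checkpoint kinase gene Bub1 2.39-fold higher (counting interval 2.23 to 2.57), cyclin A2 (Ccna2) 2.2-fold higher (counting interval 2.09 to 2.32) and the kinase gene Melk 2.17-fold higher (counting interval 1.99 to 2.38). Espl1, the protease separase, was at 50.5 CPM in KO and 23.4 CPM in WT, and Ect2, a RhoA activator of cytokinesis, at 87.8 CPM in KO and 41.2 CPM in WT. Mki67, the proliferation marker Ki-67, was at 227, 264 and 289 CPM in KO, against 147, 159.8 and 141 CPM in WT. The lamin gene Lmnb1, whose loss is a mark of senescent cells, was at 73.2, 76.8 and 92.5 CPM in KO, against 47.2, 45.1 and 37 CPM in WT (log2 fold change 0.70 ± 0.08, SE, and adjusted p = 0.0378 on days 33 and 36). For both of these, every KO library was above every WT library, and the KO value was highest on day 42.

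Cell cycle inhibitors differed in both directions. Of 16 listed inhibitors 11 were below 0 on day 42, 0 were 2-fold higher and 3 lower, with a median of -0.47; with library totals alone 1 was 2-fold higher and 2 were lower. The median was 0.09 on day 33 and 0.01 on day 36, and by edgeR 3 members rose and 1 fell on those days. Cdkn2a (chromosome 4, 89274471 to 89294653, minus strand), which encodes p16Ink4a and p19Arf, was at 40.2, 44.2 and 37.6 CPM in the KO libraries of days 33, 36 and 42, against 109, 100.3 and 84.8 CPM in WT (log2 fold change -1.31 ± 0.09, SE, and adjusted p = 0.0247 on days 33 and 36). Its neighbour Cdkn2b, encoding p15Ink4b, was at 24.9, 13.2 and 12.7 CPM in KO, against 61, 55.5 and 59.7 CPM in WT, 4.7-fold lower (counting interval 4.26 to 5.2) on day 42. Gene counts do not separate the p16 and p19 transcripts of Cdkn2a. Cdkn1a, encoding p21, was at 269 CPM in KO and 501 CPM in WT, 1.86-fold lower (counting interval 1.82 to 1.91). Cdkn1b, encoding p27, was at 68, 71 and 73 CPM in KO, against 32.3, 38.6 and 38.5 CPM in WT, and rose by 0.97 ± 0.11 on the log2 scale on days 33 and 36 (SE, adjusted p = 0.0408). Cdkn2a, Cdkn2b and Cdkn1a were thus under WT in each library and Cdkn1b above it. Gas1, a growth arrest gene, was 2.05-fold lower (counting interval 1.95 to 2.15) on day 42 but at 35.1, 54.5 and 65.2 CPM in KO over the 3 days, against 53.2, 13.9 and 134 CPM in WT, with overlapping groups.

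Trp53, which encodes p53, was at 88.8 CPM in KO and 61.3 CPM in WT on day 42. Of 34 genes in the list of p53 targets, which also holds Trp53, 32 reached 5 CPM. Their median was -0.22, with 2 at least 2-fold higher and 3 lower. With library totals alone the median was -0.10, with 2 higher and 2 lower. Mdm2, the ubiquitin ligase of p53 and its target, was at 229, 207 and 158 CPM in KO, against 401, 377 and 229 CPM in WT (adjusted p = 0.0376 on days 33 and 36). Fas, a death receptor, and Ephx1, an epoxide hydrolase, were 4.66-fold lower (counting interval 4.06 to 5.35) and 2.29-fold lower (counting interval 2.23 to 2.36). Perp, a desmosomal p53 target, and Plk2, a stress kinase, were 3.36-fold higher (counting interval 3.17 to 3.56) and 2.03-fold higher (counting interval 1.97 to 2.09). Perp was at 71.8, 137 and 145 CPM in KO, against 46.9, 37.3 and 43.2 CPM in WT, and Plk2 at 374, 491 and 378 CPM in KO, against 459.9, 474 and 187 CPM in WT. The genotypes did not overlap for Perp and overlapped for Plk2.

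**Figure D3:**
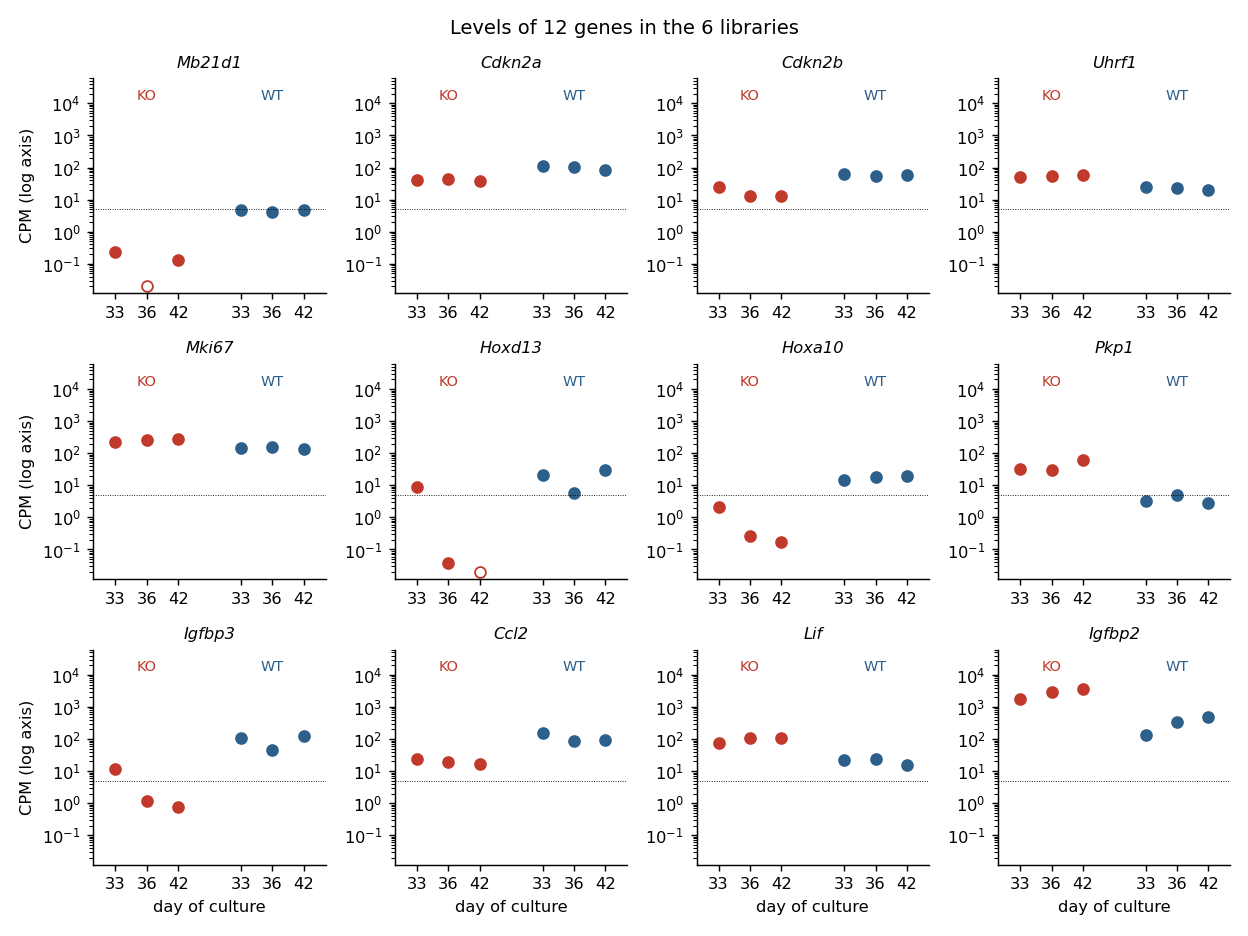
CPM on a log axis (y) by day of culture (x) for 12 genes, with the KO libraries (red) left of the WT libraries (blue), 1 point per library and the dotted line at 5 CPM. Open symbols at the bottom are libraries with 0 counts. Hoxd13, Hoxa10 and Igfbp3 were lower in KO on days 36 and 42 than on day 33, while Cdkn2a was lower and Mki67 higher in KO than in WT on every day.

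Positional genes differed widely between KO and WT. HOX genes encode the homeobox factors of the body axis, and fibroblasts are known to keep the HOX pattern of the site they came from. Of 39 HOX genes 22 reached 5 CPM in either library, 13 of them at least 2-fold lower and 1 higher, with a median of -1.97. Of these 22, 14 reached 5 CPM in WT alone and 2 in KO alone, so most members passed the limit only through the library where they were high. Hoxa10 was at 2.06, 0.261 and 0.177 CPM in the KO libraries of days 33, 36 and 42, against 14.4, 17.7 and 20.1 CPM in WT. Hoxc10 was at 0.598, 0.186 and 0.076 CPM in KO, against 8.51, 9.76 and 11.3 CPM in WT, and fell by 4.48 on the log2 scale on days 33 and 36 (SE 0.47, adjusted p = 0.0387). In both genes the KO value was lower and the WT value higher on each later day. The 13 lower genes were Hoxa9, Hoxa10, Hoxa11, Hoxa13, Hoxb7, Hoxb8, Hoxd8, Hoxd13 and every Hoxc gene that reached 5 CPM (Hoxc4, Hoxc5, Hoxc6, Hoxc8 and Hoxc10). Hoxa2, Hoxa3 and Hoxa5 were at log2 differences of 1.32, 0.93 and 0.77, Hoxa2 being the higher gene. Hoxb3 and Hoxb4 were at -0.09 and 0.01. Reads of Hoxa genes and their antisense transcripts could be mixed if strand was not used in counting.

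Of 33 other patterning factors at 5 CPM, 17 were at least 2-fold lower, 1 was higher and the median was -1.02. Of these 33, 15 reached 5 CPM in WT alone and 2 in KO alone, so the lower count rests in large part on genes that entered through WT. Lmx1b, a factor of the dorsal limb, was at 0 counts in KO on day 42 and at 6.62 CPM in WT, at least 87-fold lower. Alx1 was at 0.179, 0.112 and 0 CPM in KO, against 2.73, 1.58 and 8.59 CPM in WT, and Tfap2b at 0.0299, 0 and 0 CPM in KO, against 5.7, 0.848 and 13.7 CPM in WT. Twist1 and Twist2, mesenchymal factors, were at log2 differences of 0.08 and -0.06, and Meis1 and Meis2, HOX cofactors, at -0.10 and -0.07.

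**Figure D4:**
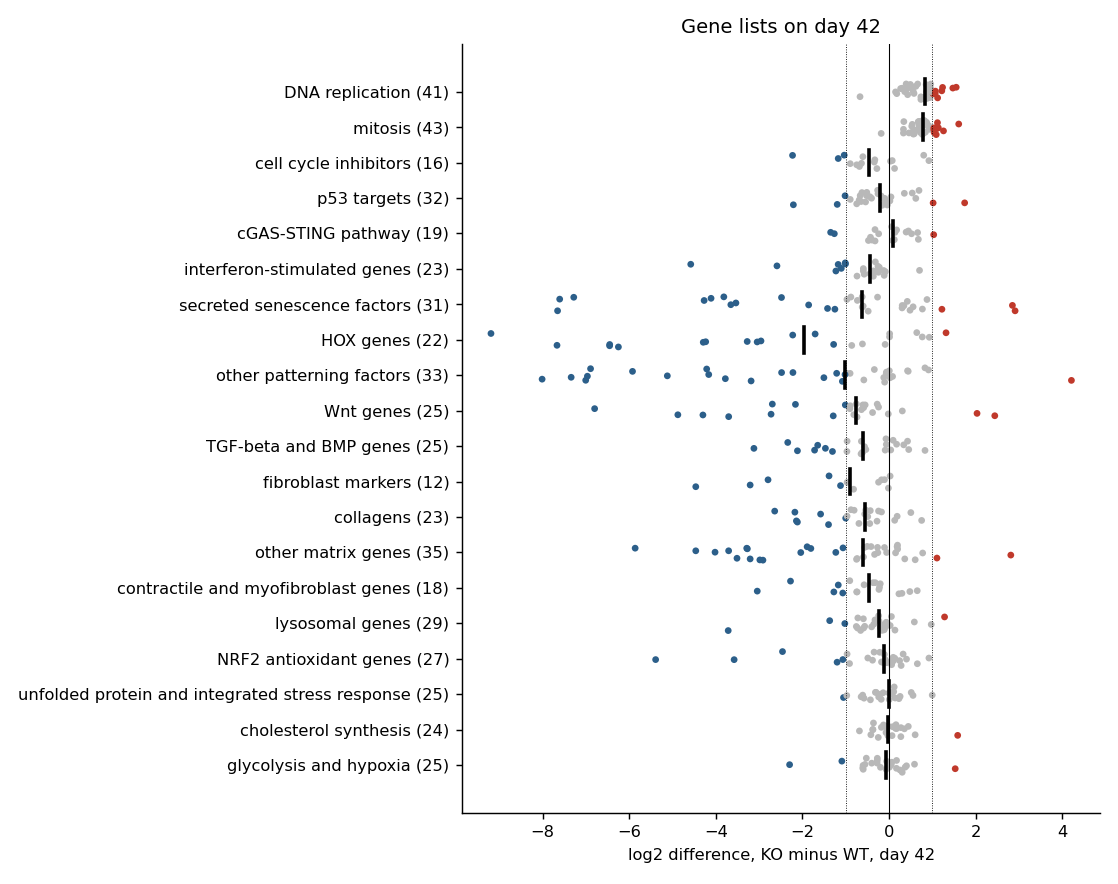
Log2 difference, KO minus WT, on day 42 (x axis) of the members of 20 gene lists that reached 5 CPM (number in brackets), 1 point per gene. Red and blue points are at least 2-fold higher and lower in KO, and black bars are list medians. The medians of DNA replication and mitosis stand at 0.83 and 0.79, those of HOX genes and other patterning factors at -1.97 and -1.02.

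Secreted factors of senescent cells were divided. Of 48 listed, 31 reached 5 CPM, 12 at least 2-fold lower and 3 higher, with a median of -0.62. Of these 31, 6 reached the limit in WT alone, Igfbp3 and Cxcl5 among them, and 1 in KO alone. Igfbp3 (chromosome 11, 7206086 to 7213923, minus strand), a binding protein of insulin-like growth factors, was at 11.8, 1.19 and 0.76 CPM in the KO libraries of days 33, 36 and 42, against 108, 46.1 and 127 CPM in WT. Igfbp6, of the same family, was at 4.22, 1.72 and 1.27 CPM in KO, against 41.2, 30.6 and 25.4 CPM in WT, and fell by 3.58 on the log2 scale on days 33 and 36 (SE 0.47, adjusted p = 0.049). These genes and Igfbp2 thus differed in opposite directions, with no overlap between genotypes in any of them. Cxcl5, a neutrophil chemokine, had 1 count in KO on day 42, against 552 in WT, 624-fold lower (counting interval 112 to 24689). Ccl2, the monocyte chemokine MCP-1, was at 24, 19.7 and 16.3 CPM in KO, against 151, 86.3 and 91.4 CPM in WT (adjusted p = 0.0495 on days 33 and 36). Lif (chromosome 11, 4257557 to 4272514, plus strand), an IL-6 family cytokine, was at 75.4, 107 and 109 CPM in KO, against 21.7, 23.2 and 15.2 CPM in WT, and rose by 2.02 ± 0.20 on the log2 scale on days 33 and 36 (SE, adjusted p = 0.0376). Ccl2 was low and Lif high in each KO library. Il6 was at 12.6, 1.9 and 0.583 CPM in KO, against 3.54, 4.35 and 2.95 CPM in WT, with overlapping groups and under 5 CPM in both on day 42.

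Matrix and contractile genes were mostly lower in KO on day 42. Of 23 collagen chains 7 were at least 2-fold lower and 0 higher, with a median of -0.56. Of the 23, 1 reached 5 CPM in WT alone, Col15a1. Col4a1 and Col4a2, the main basement membrane chains, were 4.41-fold lower (counting interval 4.34 to 4.47) and 4.51-fold lower (counting interval 4.44 to 4.59). Col12a1, a fibril-associated chain, was at 2379.6, 1223 and 1326 CPM in KO, against 3779, 3678 and 5755 CPM in WT, and Col15a1 at 4.31, 1.16 and 1.82 CPM in KO, against 2.86, 1.28 and 11.7 CPM in WT. Col12a1 was under WT on all days. Col15a1 was above it on day 33, close to it on day 36 (log2 difference -0.14) and under it on day 42. Col1a1 itself was at 10294, 6971 and 7290.2 CPM in KO, against 9106, 9745 and 8625 CPM in WT, with overlapping groups. Of 35 other matrix genes 15 were at least 2-fold lower and 2 higher, with a median of -0.59, and 4 reached 5 CPM in WT alone. Eln, which encodes elastin, was at 11.7, 1.01 and 1.01 CPM in KO, against 16.2, 16.4 and 62.1 CPM in WT, and Efemp1, a fibulin, at 76.4, 29.8 and 26.3 CPM in KO, against 595, 511 and 343 CPM in WT. Fmod, the small proteoglycan fibromodulin, was at 74.7, 6.12 and 12.1 CPM in KO, against 27.5, 15.4 and 197 CPM in WT. Efemp1 was lower in each KO library, Eln most of all on days 36 and 42, and Fmod was above WT on day 33 and below it on the others.

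Of the 12 fibroblast markers 5 were at least 2-fold lower in KO and 0 higher, with a median of -0.89. Pdgfra, a receptor that marks mesenchymal fibroblasts, was at 45.4, 18.9 and 14.6 CPM in the KO libraries of days 33, 36 and 42, against 97.4, 44.8 and 102 CPM in WT. Dcn and Lum, the proteoglycans decorin and lumican, were 9.26-fold lower (counting interval 8.57 to 10.02) and 23.3-fold lower (counting interval 16.7 to 33.5), and Pdgfrb, a receptor shared with pericytes, 2.61-fold lower (counting interval 2.54 to 2.68). Vim, an intermediate filament gene, was 1.02-fold higher (counting interval 1.01 to 1.02). Of 18 contractile genes 5 were at least 2-fold lower and 0 higher, with a median of -0.47. Cnn1, a smooth muscle calponin, was at 173, 89.6 and 67.4 CPM in KO, against 358, 519 and 327 CPM in WT. Lmod1, an actin nucleator of smooth muscle, fell by 0.96 on the log2 scale on days 33 and 36 (SE 0.09, adjusted p = 0.0357) and was 2.42-fold lower (counting interval 2.32 to 2.52) on day 42. Mylk, the myosin light chain kinase, and Actg2, an enteric actin, were 8.31-fold lower (counting interval 7.23 to 9.59) and 2.25-fold lower (counting interval 2.18 to 2.33). Cnn1 and Lmod1 were under WT on every day.

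Signalling genes of the Wnt and TGF-beta families were more often lower than higher. Of 25 Wnt genes 9 were at least 2-fold lower and 2 higher, with a median of -0.76, which stood at 0.13 and -0.10 on days 33 and 36. Of the 25, 6 reached 5 CPM in WT alone and 2 in KO alone and could enter only through the genotype where they were high. Dkk2, a secreted Wnt antagonist, was at 2.84, 1.98 and 1.27 CPM in the KO libraries of days 33, 36 and 42, against 81.2, 47.3 and 38.8 CPM in WT, and fell by 4.72 on the log2 scale on days 33 and 36 (SE 0.39, adjusted p = 0.0354). Wnt4, a ligand, had 1 count in KO on day 42 and 304 in WT, 344-fold lower (counting interval 61.2 to 13616). Nkd1, an intracellular antagonist induced by the pathway, was at 3.23, 0.559 and 0.608 CPM in KO, against 1.86, 1.08 and 8.56 CPM in WT. Dkk2 was low in KO on each day, and Nkd1 had a raised WT value on day 42. Of 25 TGF-beta and BMP genes 7 were at least 2-fold lower and 0 higher, with a median of -0.61. Grem1, a secreted BMP antagonist, was at 430.0, 341 and 392.2 CPM in KO, against 841, 706 and 1700.0 CPM in WT. Bmp4, a ligand it binds, was at 38.3, 16.6 and 12.9 CPM in KO, against 21.2, 9.46 and 65.6 CPM in WT, and Smad6, an inhibitory SMAD, at 26.9, 10.2 and 8.36 CPM in KO, against 14.9, 20.8 and 27.7 CPM in WT. Both of these were higher in KO than in WT on day 33 and lower on day 42.

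Metabolic and stress lists had medians near 0. The median was -0.11 for 27 NRF2 and antioxidant genes, -0.02 for 24 cholesterol genes, -0.07 for 25 glycolysis and hypoxia genes and -0.0038 for 25 genes of the unfolded protein and integrated stress responses, and all 4 medians were above 0 with library totals alone. Of the NRF2 and antioxidant genes 5 were at least 2-fold lower and 0 higher, and by edgeR 4 fell and 0 rose on days 33 and 36. Among those 5, Sod3 and Gsta4 reached 5 CPM in WT alone and could enter only through WT. Of the cholesterol genes 0 were lower and 1 higher, of the glycolysis and hypoxia genes 2 were lower and 1 higher, and of the stress response genes 1 was lower and 0 higher. Sod3, the secreted superoxide dismutase, was at 32.3, 3.99 and 3.09 CPM in the KO libraries of days 33, 36 and 42, against 50.4, 29.7 and 132 CPM in WT, and Gpx3, the plasma glutathione peroxidase, at 15.5, 7.61 and 5.98 CPM in KO, against 33.9, 25 and 72 CPM in WT. Both were lower in KO on each day, with the widest gap on day 42. Fth1, the ferritin heavy chain, fell by 0.77 on the log2 scale on days 33 and 36 (SE 0.07, adjusted p = 0.0339) and was 2.3-fold lower (counting interval 2.22 to 2.38) on day 42, and Gsta4, a glutathione transferase, was 5.6-fold lower (counting interval 4.53 to 6.97). Hk2, a hexokinase, was 2.89-fold higher (counting interval 2.72 to 3.06), and the hormone gene Adm (adrenomedullin) 4.94-fold lower (counting interval 4.35 to 5.62). Of 29 lysosomal genes 3 were at least 2-fold lower and 1 higher, with a median of -0.23. Ctsk, a collagen-degrading cathepsin, was at 8.88, 12.7 and 9.48 CPM in KO, against 137, 115 and 125 CPM in WT (adjusted p = 0.0247 on days 33 and 36), and Ctsb, cathepsin B, at 427, 491 and 416 CPM in KO, against 948, 842 and 1077 CPM in WT. Ctsh, another cathepsin, was at 52.8, 78.8 and 76.7 CPM in KO, against 21.3, 33.6 and 31.5 CPM in WT. On day 42 it was 2.43-fold higher (counting interval 2.27 to 2.61). Ctsk and Ctsb were thus lower and Ctsh higher in KO on all 3 days.

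The difference on day 42 was set against that of days 33 and 36 to ask what had not yet been present. Of the genes past 2-fold on day 42, 301 of 364 higher and 592 of 781 lower ones had the same sign on both other days, while 11 and 41 had the opposite sign on both. The same count over all 12023 genes was not made, so these numbers show no persistence particular to the day 42 genes. The test of the departure itself called 0 of 17233 genes (0%) by edgeR and 0 by limma-voom; 1744 had an unadjusted p below 0.05, and DESeq2 called 141. For no gene is the KO to WT difference on day 42 therefore shown to depart from that of the earlier days by this fit. Whether the level of a gene changed with time within a genotype was not tested. By size, the widest departures downward were Gprin3, Penk, Hoxd13, Mmp3, Tnn, Clec14a, Sfrp2 and Islr. Hoxd13, Mmp3 and Tnn had 0 counts in KO on day 42, so their size and place depend on the prior count. With a prior count of 0.5 the day 42 difference of Hoxd13 went from -9.19 to -11.19. The place of Gprin3 rests in part on a WT level near 0 on day 36. Gprin3, a G-protein regulator of neurite growth, was at 2.75, 0.224 and 0.405 CPM in the KO libraries of days 33, 36 and 42, against 0.171, 0.0229 and 5.33 CPM in WT. Islr, a leucine-rich repeat protein of mesenchymal cells, was at 37.1, 4.51 and 7.83 CPM in KO, against 7.36, 4.35 and 80.5 CPM in WT, and Sfrp2, a secreted Wnt modulator, at 2.48, 0.149 and 0.38 CPM in KO, against 0.811, 0.275 and 8.48 CPM in WT. In all 3 the WT library of day 42 was many times above those of days 33 and 36, and KO was above WT on day 33. Clec14a, a lectin of endothelial cells, was at 2.72, 0.112 and 0.152 CPM in KO, against 1.92, 0.573 and 12.1 CPM in WT.

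Upward, the widest departures were Crabp1, F2rl1, Hs3st3a1, Lad1, Lrrtm1, Cldn1, Eml5 and Slco4a1. Crabp1, a retinoic acid binding protein, was at 2.84, 50.3 and 30.1 CPM in the KO libraries of days 33, 36 and 42, against 113, 70.6 and 14.1 CPM in WT. F2rl1 was at 6.996, 42.8 and 44.4 CPM in KO, against 30.6, 23.9 and 5.5 CPM in WT, and Cldn1, a tight junction claudin, at 4.48, 16.3 and 26.2 CPM in KO, against 20.3, 8.89 and 5.84 CPM in WT. In each the WT level was lowest on day 42 and the KO level lowest on day 33, so the order of the genotypes turned over. Hs3st3a1, a heparan sulfate sulfotransferase, was 4.51-fold higher (counting interval 3.48 to 5.93) on day 42 and Eml5 2.3-fold higher (counting interval 1.79 to 2.97).

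**Figure D5:**
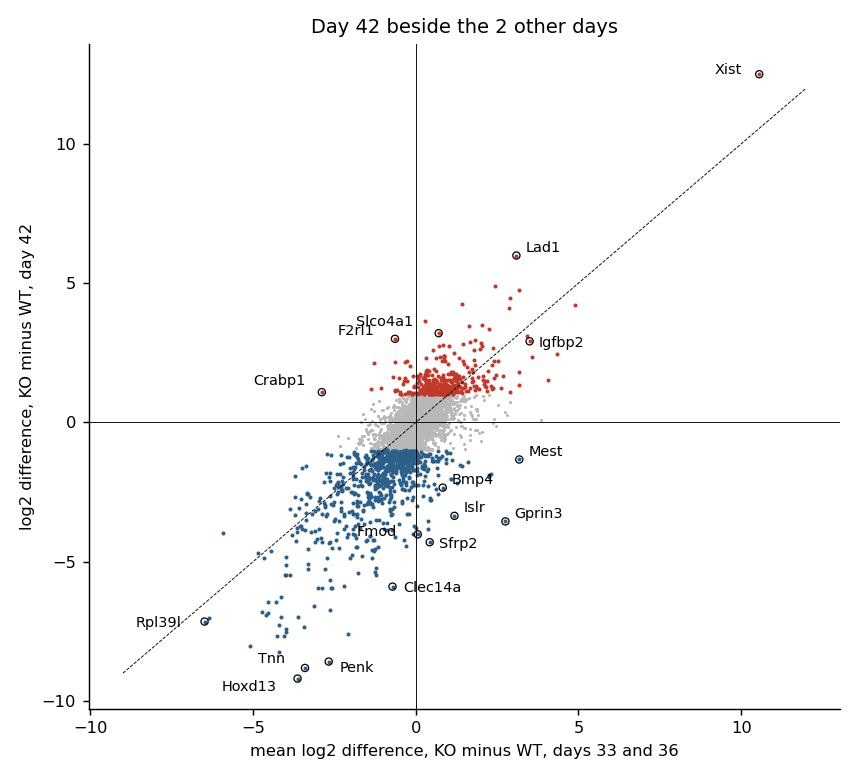
Log2 difference, KO minus WT, on day 42 (y axis) against the mean of those of days 33 and 36 (x axis) for 12023 genes. Red and blue points are at least 2-fold higher and lower on day 42, and the dashed line marks equal values. Rpl39l and Igfbp2 lie near it, while Mest, Gprin3 and Islr lie to the right of 0 and below it.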

How the data were processed

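Stranded poly(A) libraries were made from RNA of whole MEF cultures, per the labels' protocols. The authors deposited estimated counts per gene, unnormalized and fractional by the values in the table. The deposited table also holds RPKM, printed here for 2 genes as the mean over the columns of a library. Build mm10, Bowtie2 2.2.1 and limma 3.18.13 are named in the submitters' processing notes, without a role for each. Neither a counting program nor an annotation release or strand setting is stated there. From the transcript table, 48 per-sample columns stayed unused.

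The 4 columns of a genotype and day were summed, rounded and treated as 1 library. Tests used edgeR 4.0.16 (TMM factors, filterByExpr, robust quasi-likelihood, Benjamini-Hochberg at 0.05) in R 4.3.3, with 4 groups: KO day 42, WT day 42, KO days 33 and 36, WT days 33 and 36. A lone day 42 library is assumed to vary like the pair of its genotype. Each SE was derived from the test, as the log2 fold change over the square root of its F statistic. With so few libraries it does not serve as an interval. DESeq2 1.42.0, limma-voom from limma 3.58.1, other size factors, prior counts, filters and left-out libraries served as alternatives. Day 42 differences are log2 CPM, KO minus WT, with a prior count of 2.

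The 32 gene lists, the comparison and the rule for named genes were chosen with earlier results of these data known. Named are the 12 largest differences each way (no predicted names, Xist or Y-linked genes) and up to 4 members per list past 2-fold. Also named are the 8 widest departures each way from days 33 and 36, genes called on day 42, and a fixed set of genes. HOX genes beyond these, Usp9y, E2f1, Pttg1, Espl1, Ect2, the Twist and Meis genes and genes near the 5 CPM limit were named after their values were seen. Coordinates are from GENCODE vM21 (GRCm38), matched by gene ID for all 132 genes looked up. Some of the genes under the naming rule are not reported here.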

Additional observations from a re-analysis of the deposited data

How the results depend on the processing

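The day 42 counts of 364 higher and 781 lower genes stayed within 1.5 times under other size factors (365 and 781 with median ratios), a prior count of 0.5 (367 and 782), TMM factors of the day 42 libraries alone (367 and 793), a 10 CPM limit (299 and 557) and, chosen after seeing the data, a mean of at least 5 CPM (331 and 630). With a 1 CPM limit 538 genes were higher and 1390 lower, as more genes enter. Leaving out 1 column gave 368 to 376 higher and 774 to 791 lower genes. Tested over the 8 day 42 columns, 366 genes were past 2-fold and called higher and 782 lower, and with a replicate block 367 and 782; those p-values measure the sampling noise of 1 library. Of the 132 genes looked up, none changed sign under median ratios, library totals or the lower prior count. With library totals alone 42 of them moved outside their counting interval, so these intervals do not cover the choice of scaling. Of 31 list medians, 23 were below 0, and 19 with library totals alone. The test for day 42 called 5 genes, but 11 among genes of 5 CPM or more and 1631 by DESeq2, and 0 without each library of days 33 and 36. For days 33 and 36, 569 calls became 1737 by DESeq2 and 0 to 143 with 1 library left out. For the departure, 0 calls became 141 by DESeq2. The cause of these differences between tools was not tested. Depth limits the folds of genes with few counts in 1 library, such as Cxcl5, Wnt4 and Lad1, whose counting intervals are wide, and the spread between cultures on day 42 is unknown.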

Other observations

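Imprinted genes, which are expressed from 1 parental allele and include several of fetal growth, included genes whose order between KO and WT differed from day to day. Of 17 at 5 CPM, 3 were at least 2-fold lower in KO on day 42 and 1 higher, with a median of -0.50. Mest, a hydrolase-like gene of mesoderm, was at 77.8, 25.4 and 36.0 CPM in the KO libraries of days 33, 36 and 42, against 9.07, 2.59 and 90.5 CPM in WT. H19, a noncoding RNA, was at 389, 88.3 and 77.8 CPM in KO, against 158, 46.5 and 199 CPM in WT, and its neighbour Igf2, a growth factor, at 43.6, 24.4 and 13.5 CPM in KO, against 52.5, 19.9 and 186 CPM in WT. Mest and H19 were higher in KO on days 33 and 36 and lower on day 42, when all 3 genes had their highest WT value. Departures of these genes were not called by edgeR.

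By chromosome, the share of genes at least 2-fold lower in KO on day 42 ran from 4.77% on chromosome 4 to 11.3% on chromosome 15, and the share at least 2-fold higher from 1.75% on chromosome 19 to 4.35% on chromosome 15. The median log2 difference by chromosome, over autosomes and X, ran from -0.0755 on chromosome 10 to 0.0976 on chromosome 4, and X stood at 0.0853. With library totals alone the median of all genes was 0.12 higher on the log2 scale. Of 8 X-linked genes known to escape silencing, 7 were above 0 with a median of 0.72, and 1 was at least 2-fold higher. Of the 13 mitochondrially encoded genes 11 were below 0, with a median of -0.44 on day 42, -0.67 on day 33 and -2.27 on day 36. Of 17 immediate early genes 11 were above 0 with a median of 0.44, and Dusp1, a MAP kinase phosphatase, was 3.25-fold lower (counting interval 3.03 to 3.50). Of 4 adipocyte markers at 5 CPM, 3 reached it in WT alone. Plin4, a lipid droplet gene, was at a log2 difference of 0.28, while Pparg, Lpl and Fabp4, a regulator, a lipase and a lipid carrier, were 3.91-fold lower (counting interval 3.19 to 4.82), 9.76-fold lower (counting interval 7.64 to 12.6) and 2.36-fold lower (counting interval 1.83 to 3.08). Of 3 cartilage and bone markers at 5 CPM, Sox9, a cartilage factor, was 2.004-fold higher (counting interval 1.82 to 2.21), and Col2a1 and Runx2, a cartilage collagen and a bone factor, were at log2 differences of 0.39 and -0.46. Of 2 skeletal muscle markers at 5 CPM, 2 were below 0 and neither was past 2-fold.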
